A study of Mus musculus with 6 samples.

Results

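The 10 genes described here encode proteins that exocrine glands secrete: the secretoglobins *Scgb1b27*, *Scgb2b27* and *Scgb2b26*, prolactin induced protein (*Pip*), lactoperoxidase (*Lpo*), the submaxillary gland proteins *Smr3a* and *Smr2*, the demilune cell and parotid proteins *Dcpp1* and *Dcpp2*, and *Bpifa2*, the parotid secretory protein. They are 10 of the 18460 genes listed in at least 1 of 6 mouse breast tumors, and they were chosen by their levels in single tumors, so their levels are given as a description without a test. The tumors were spontaneous breast tumors of Balb/c mice carrying the PyMT transgene on a *Rag1*-deficient background, and each host was given CD4+ T cells at 4 weeks of age and its tumor was taken at week 18 to 20. The 3 test tumors came from K14-TSLPtg;PyMTtg;Rag1KO hosts and the 3 control tumors from PyMTtg;Rag1KO hosts, so PyMT, the loss of *Rag1* and the transferred CD4+ T cells were common to both groups. The comparison asks how the tumor differs when the host carries a transgene for the cytokine TSLP in addition to its own *Tslp* gene. The K14 promoter drives TSLP in keratinocytes and other basal epithelial cells, the MMTV promoter drives the PyMT oncogene in mammary epithelium, and without *Rag1* the hosts make no T or B cells of their own, so that transferred CD4+ cells are their source of T cells.

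Salivary, lacrimal, sweat and mammary glands share one plan, in which acinar cells fill granules or vesicles with protein and release it into a duct. Secretoglobins are small secreted proteins that pair as dimers. The rodent *Scgb1b* and *Scgb2b* genes encode the subunits of androgen binding protein, which is abundant in saliva and tears. PIP is found in saliva, tears, sweat and the apocrine secretions of the breast. Lactoperoxidase, which is present in milk, saliva and tears, makes antimicrobial hypothiocyanite. SMR proteins are products of the submandibular and sublingual glands, and *Smr3a* and *Smr2* lie beside the casein genes that encode milk protein. DCPP proteins come from the demilune cells of the sublingual gland and from the parotid. BPIFA2 belongs to a family of lipid-binding proteins of the mouth and airway.

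Libraries held between 8373390 and 9449565 expected counts, where an expected count is the number of sequenced fragments that was assigned to a gene by estimation. Control replicate 2 stood apart: of 13706 genes with enough counts to be tested, none differed between test and control at an adjusted p of 0.05 or less (0%, edgeR quasi-likelihood test, Benjamini-Hochberg adjustment), but 182 did without that tumor. At an unadjusted p under 0.05 there were 1153 genes, 432 higher (3.15%) and 721 lower (5.26%) in test tumors, and DESeq2 called 344 genes at the same adjusted threshold. The labels were checked on *Tslp*, which had 2, 2 and 3 counts in control replicates 1 to 3 and 12, 7 and 2 in test replicates 1 to 3, so that test replicate 3 fell within the control range. *Rag1* had 27, 4 and 10 counts in the control tumors and 6, 12 and 9 in the test tumors, and *Cd4* had 19, 16 and 35 against 9, 13 and 18. Epithelial keratins marked every tumor, with *Krt8* between 214 and 798 FPKM (fragments scaled to transcript length and library depth). The tumors came from different mice, so the spread within a group is that between animals. Tumor tissue is a mixture, and fewer cells of a type cannot be told apart from less of an RNA in each cell.

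7 of the genes lie in 3 clusters of related copies. In the mm10 (GRCm38) assembly with RefSeq annotation, *Scgb1b27* (chr7:34021481-34022881), *Scgb2b27* (chr7:34011919-34013942) and *Scgb2b26* (chr7:33942997-33944985) are neighbors, with 7.5 kb between the first pair and 66.9 kb between the *Scgb2b* genes. *Smr3a* (chr5:87991555-88008534) and *Smr2* (chr5:88086556-88109053) are 78.0 kb apart. *Dcpp1* (chr17:23880669-23882853) and *Dcpp2* (chr17:23898722-23900788) are 15.9 kb apart. The other genes lie alone among the members: *Pip* at chr6:41847549-41852065, *Lpo* at chr11:87806428-87826114 and *Bpifa2* at chr2:154008276-154016073.

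The start regions of the related pairs are shown because the genes of each pair peaked in the same tumor and their sequences are close copies. Each stretch runs 5′ to 3′ on the gene's own strand, from 100 bases before to 50 bases after the start of the 1 RefSeq transcript taken for each gene in GRCm38, which for *Smr3a* and *Dcpp1* lies inside the gene span given above, with the letters TATAA in capitals. *Scgb2b27* (chr7:34013893-34014042, minus strand) and *Scgb2b26* (chr7:33944936-33945085, minus strand) share the run leading to that box, which for *Scgb2b27* falls after the annotated start. *Smr3a* (chr5:88002425-88002574), *Smr2* (chr5:88086456-88086605), *Dcpp1* (chr17:23880776-23880925) and *Dcpp2* (chr17:23898622-23898771) lie on the plus strand.
Scgb2b27: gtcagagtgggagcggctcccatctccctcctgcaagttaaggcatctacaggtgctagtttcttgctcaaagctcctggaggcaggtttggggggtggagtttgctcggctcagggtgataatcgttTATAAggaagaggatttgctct
Scgb2b26: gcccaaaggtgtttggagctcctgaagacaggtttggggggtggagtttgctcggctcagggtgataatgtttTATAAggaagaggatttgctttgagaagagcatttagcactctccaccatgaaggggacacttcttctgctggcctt
Smr3a: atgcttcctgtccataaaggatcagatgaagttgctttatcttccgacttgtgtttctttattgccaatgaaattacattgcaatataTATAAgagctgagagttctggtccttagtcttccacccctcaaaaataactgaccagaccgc
Smr2: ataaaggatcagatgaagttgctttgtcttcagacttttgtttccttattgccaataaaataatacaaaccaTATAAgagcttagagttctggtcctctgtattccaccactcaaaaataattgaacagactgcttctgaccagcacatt
Dcpp1: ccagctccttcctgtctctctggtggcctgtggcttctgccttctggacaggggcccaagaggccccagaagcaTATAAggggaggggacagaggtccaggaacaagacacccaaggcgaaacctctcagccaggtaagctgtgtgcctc
Dcpp2: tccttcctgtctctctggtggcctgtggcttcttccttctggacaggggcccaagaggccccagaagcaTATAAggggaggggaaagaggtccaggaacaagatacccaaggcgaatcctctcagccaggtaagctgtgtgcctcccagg

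Over the 250 bases before the start, *Dcpp1* and *Dcpp2* were 96.7% identical in their aligned part, *Smr3a* and *Smr2* 90.3% and *Scgb2b27* and *Scgb2b26* 80.8%. All other pairs of members lay between 50.2% and 65.2% in the stretches that aligned. These stretches were 17 to 283 bases long, and the 65.2%, of *Pip* and *Dcpp1*, covered 23 bases. The related pairs aligned over 198 to 246 bases. Over the GENCODE transcripts, identity was 94.2% for *Dcpp1* and *Dcpp2*, 81.4% for the *Scgb2b* pair and 68.2% for *Smr3a* and *Smr2*, so fragments of the *Dcpp* genes in particular could have been split between copies and their separate levels are uncertain. *Scgb1b27* was 90.2% identical to its relative *Scgb1b30*, to which the same limit applies. TATAA on the sense strand within the 300 bases around the start was found in 9 of the 10 genes, all but *Lpo*, and in 18.2% of 27025 mouse promoters. The hexamer TGTTCT of steroid receptor elements, sought on both strands in the 250 bases before the start, was in *Pip* and *Bpifa2* and in 16.2% of promoters. The STAT core TTCNNNGAA, sought on both strands in the same window, was in *Pip* and in 7.18% of promoters. These are matches of letters, and the files hold no measurement of factor binding.

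*Scgb1b27*, which encodes the alpha subunit of androgen binding protein, reached 11245 FPKM in test replicate 1, the second highest level of any gene in that tumor. It stood at 80.2 and 15.5 FPKM in test replicates 2 and 3 and at 9.32, 644 and 11.98 FPKM in control replicates 1 to 3. The groups overlapped, and the second highest tumor was a control. Its 37194 counts made up 0.444% of all counts of test replicate 1, against 34 counts in control replicate 1, and the counting interval of the former (95% exact Poisson, 36820 to 37570, counting error only) was narrow beside the differences between tumors.

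*Scgb2b27*, which encodes a beta or gamma subunit of the same dimer, ran from 11.7, 347 and 98.9 FPKM in the control tumors to 3960, 221 and 73.4 FPKM in the test tumors. The order of the 3 highest tumors was that of *Scgb1b27*: test replicate 1, control replicate 2, test replicate 2. The ratio of *Scgb1b27* to *Scgb2b27*, per length, was 2.84 in test replicate 1 and 1.86 in control replicate 2, but between 0.121 and 0.800 in the other tumors. In the tumors where both were high the alpha gene was thus in excess, and in the rest it was the lesser. *Scgb2b26* was a minor copy, with 0, 35.7 and 3 counts in control and 48.5, 1.52 and 0 counts in test tumors, and its levels were 0, 7.98 and 0.66 FPKM against 11.6, 0.35 and 0 FPKM. A count of 0 allows up to 3 counts in a library. The ratio of *Scgb2b27* to *Scgb2b26* ranged from 43.5 to 632 over the 4 tumors where both were counted.

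*Pip* followed the secretoglobins, at 0.60, 63.0 and 11.3 FPKM in the control tumors and at 904, 3.41 and 1.94 FPKM in the test tumors. Test replicates 2 and 3 lay between the lowest and the middle control tumor. *Lpo* stood at 0.07, 2.74 and 0.15 FPKM in control tumors and at 13.0, 0.67 and 2.16 FPKM in test tumors, so that test replicate 3, in which the secretoglobins were low, was only slightly below control replicate 2. For each of these 5 genes test replicate 1 was the highest tumor and control replicate 2 the next. The same first and second tumors were found in 472 of the 13706 tested genes (3.44%).

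*Smr3a* showed another pattern, with 105, 3.52 and 289 FPKM in control replicates 1 to 3 and 2.43, 0.73 and 0.50 FPKM in the test tumors. *Smr2* ran beside it, at 72.1, 2.03 and 109 FPKM in control and 1.99, 0 and 0 FPKM in test tumors. Both were high in control replicates 3 and 1 and low in the other 4 tumors, including control replicate 2. They were the members whose groups did not overlap, with every control tumor above every test tumor as for 5.88% of tested genes (the reverse order held for 6.12%), but the margin was small: 20 counts in control replicate 2 against 13 in test replicate 1 for *Smr3a*, and 13 against 12 for *Smr2*. Per length, the ratio of *Smr3a* to *Smr2* was between 1.22 and 2.66 in the 4 tumors where *Smr2* was counted. Control replicate 3 over control replicate 1 was the leading pair of 745 tested genes (5.44%).

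*Dcpp1* and *Dcpp2* peaked in control replicate 2 and next in control replicate 3. *Dcpp2* was at 1.60, 24.9 and 18.7 FPKM in control and at 0.41, 4.57 and 0.54 FPKM in test tumors. *Dcpp1* was at 0.23, 13.7 and 7.10 FPKM in control and at 0.61, 1.24 and 0 FPKM in test tumors. The groups overlapped for both genes, since control replicate 1 lay within the range of the test tumors. Their leading pair of tumors was that of 190 tested genes (1.39%). *Bpifa2* was near the limit of detection, with 1, 1 and 23 counts in control and 13, 17 and 0 counts in test tumors. It was highest in control replicate 3 at 2.65 FPKM and next in test replicate 2 at 2.07 FPKM, and no other member had this order.

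**Figure D1:**
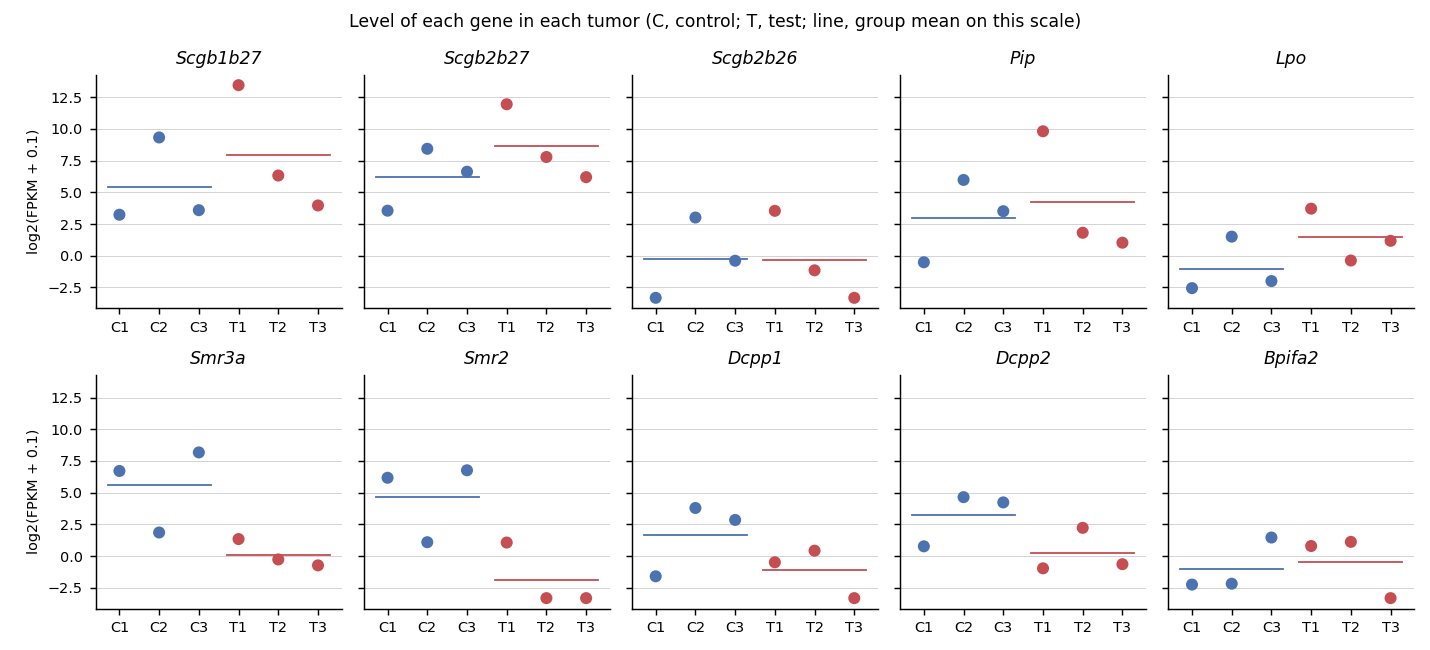
Level of each of the 10 genes in each tumor as log2(FPKM + 0.1), where C1 to C3 are the control tumors (blue), T1 to T3 the test tumors (red) and lines are group means on this scale. Test replicate 1 is the highest point for the 3 secretoglobins, *Pip* and *Lpo*, whereas *Smr3a* and *Smr2* are high in control replicates 1 and 3 and all 3 control points lie above the test points.

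The genes thus fell into sets by the tumor in which they were highest: test replicate 1 was so for 5 of them, control replicate 3 for 3 and control replicate 2 for 2. Of all tested genes, 18.5%, 10.8% and 12.7% were highest in these tumors. None of the 10 was highest in control replicate 1, test replicate 2 or test replicate 3, which were the highest tumors of 21.1%, 25.7% and 11.2% of all tested genes. To measure how far a single tumor held a gene, its CPM (counts scaled to library size, with TMM factors) was summed over the 6 tumors. Test replicate 1 held 93.6% of this sum for *Scgb1b27*, 91.8% for *Pip*, 83.5% for *Scgb2b27* and 68.7% for *Lpo*. Control replicate 3 held 70.2% for *Smr3a* and 56.6% for *Smr2*, and control replicate 2 held 59.5% for *Dcpp1*. A single tumor held at least 50% for 8 of the 10 genes, all but *Dcpp2* (48.5%) and *Bpifa2* (39.2%). Among tested genes the figure was 455 (3.32%), but the members were selected on this very property. The leading pair of tumors together held between 72.4% (*Bpifa2*) and 98.9% (*Scgb1b27*).

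**Figure D2:**
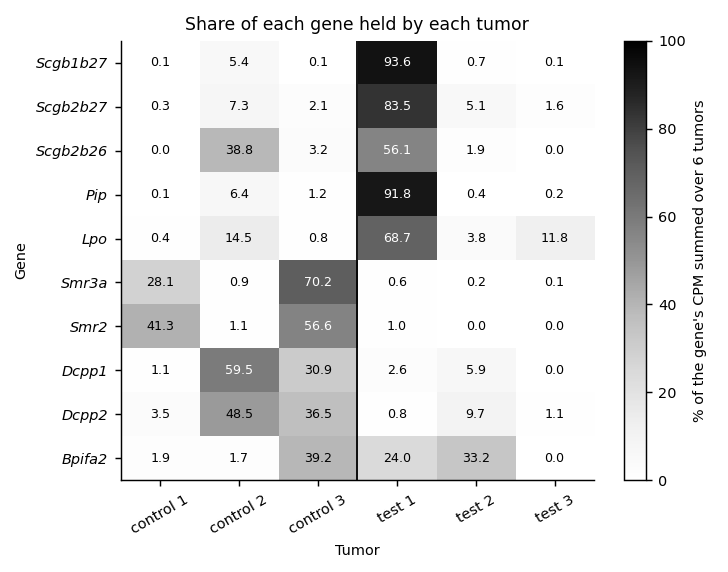
Percent of each gene's CPM summed over 6 tumors that each tumor holds, with genes as rows and tumors as columns and the group border as a vertical line. Dark cells fall in test replicate 1 for the upper 5 genes, in control replicates 1 and 3 for *Smr3a* and *Smr2*, and in control replicates 2 and 3 for the *Dcpp* genes.

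Likeness of pattern was described by Pearson's r of log2(CPM + 0.5) over the 6 tumors. Within the set highest in test replicate 1, r was between 0.77 (*Scgb2b26* and *Lpo*) and 0.95 (*Scgb2b26* and *Pip*). It was 0.99 for *Smr3a* and *Smr2* and 0.95 for *Dcpp1* and *Dcpp2*. *Bpifa2* reached no more than 0.43 with any other member, that one being *Scgb2b27*. *Lpo* and *Smr3a* ran in opposite directions (r = -0.73). All 6 points come from the same libraries, and the value of a pair in 1 extreme tumor weighs heavily in each r.

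Over all 15022 genes with at least 10 counts in 1 tumor, between 7 and 166 genes reached an r of 0.95 or more with a given member, with 46 for *Scgb1b27*, 38 for *Pip* and 166 for *Smr2*. The non-members closest to *Scgb1b27* were *Syap1* (r = 0.990), *Lipe* (0.988), which encodes hormone-sensitive lipase of fat cells, and *Nfs1* (0.986). For *Scgb2b27* they were *Acadm* (0.994), an enzyme of fatty acid oxidation, *Unc93a* (0.993) and *9130221F21Rik* (0.992). For *Scgb2b26* they were *Man1c1* (0.983), *Acss3* (0.983) and *Fig4* (0.979). For *Pip* they were *Slc9a8* (0.997), *Slc25a16* (0.993) and *Lmod2* (0.992), a protein of muscle filaments, and for *Lpo* *Tatdn2* (0.992), *Tmod3* (0.991) and *Mybpc1* (0.991), a protein of slow muscle. None of these was a gland secretory gene. *Smr3a* was closest to *Tubal3* (0.994), *Gpm6b* (0.991) and *Adra1d* (0.990), and *Smr2* to *Mpdz*, *Abcc3* and *Man2b2* (each 0.995). *Aox4* (0.992), *4930513N10Rik* (0.981) and *Mei1* (0.980) were closest to *Dcpp1*. *Dcpp2* was closest to *Lefty1* (0.979), *Aox4* and *4930513N10Rik* (each 0.974), so that *Aox4*, an aldehyde oxidase, was near both. *Bpifa2* was closest to *Enho* (0.981), *Bambi-ps1* and *Gm7334* (each 0.980). The size of the change was not matched: *Scgb1b27* ranged from 34 to 37194 counts and *Syap1* from 574 to 867.

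Between groups, these genes had fold changes with wide errors. In the edgeR fit, on the log2 scale, test over control was 4.09 ± 2.47 (SE) for *Scgb1b27*, 3.22 ± 1.59 for *Scgb2b27*, 3.60 ± 2.20 for *Pip* and 2.42 ± 1.41 for *Lpo*. It was -6.75 ± 1.51 for *Smr3a*, -6.54 ± 1.68 for *Smr2*, -2.94 ± 1.18 for *Dcpp2* and 0.39 ± 1.42 for *Bpifa2*, where the median over all tested genes was 0.02. *Scgb2b26* and *Dcpp1* had too few counts to enter the fit, so 8 of the 10 genes have such a value. The spread within a group was of the order of the mean, with *Scgb1b27* at 1440 ± 2460 CPM (SD, n = 3) in test against 84.5 ± 139 CPM (SD, n = 3) in control tumors, and *Smr3a* at 0.767 ± 0.637 CPM (SD, n = 3) against 83.8 ± 88.6 CPM (SD, n = 3).

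The direction rested on 1 tumor for several genes. Without test replicate 1 the log2 fold change of *Scgb1b27* turned to -2.11, that of *Pip* to -3.12 and that of *Scgb2b27* to 0.06, and that of *Lpo* was 0.58. Without control replicate 2 the values of *Scgb1b27* and *Lpo* rose to 8.40 and 5.46. *Smr3a* kept values between -7.67 and -5.56 whichever tumor was left out, and *Dcpp2* between -4.89 and -2.38. *Smr2* lay between -11.62 and -5.90, where the most extreme value was taken without test replicate 1, against test tumors with 0 counts, and depends on the small count that the fit adds. *Bpifa2* took either sign, from -0.27 without test replicate 2 to 3.24 without control replicate 3.

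**Figure D3:**
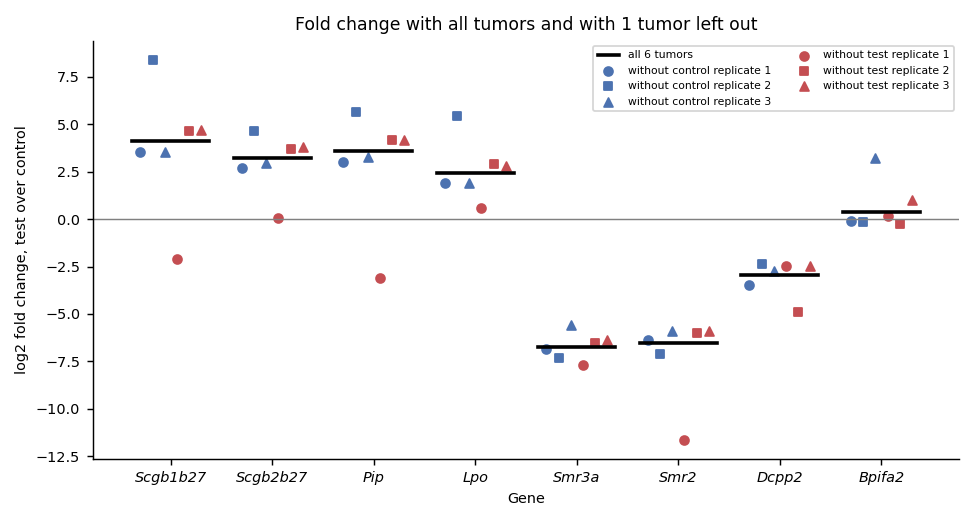
Log2 fold change (test over control) of the 8 fitted genes with all 6 tumors (black bars) and with 1 tumor left out (blue, a control tumor; red, a test tumor; the shape gives its replicate number). The red circles, without test replicate 1, fall below 0 for *Scgb1b27* (-2.11) and *Pip* (-3.12), whereas every point of *Smr3a*, *Smr2* and *Dcpp2* is below 0.

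Of 50 other annotated secretoglobin genes 6 were listed, and 2 had at least 10 counts in a tumor. *Scgb1b30*, which lies beyond *Scgb1b27* on chromosome 7, had 0, 12 and 0 counts in control and 250, 1 and 1 in test tumors, the order of its close copy. *Scgb1c1* had 2, 30 and 23 counts against 3, 75 and 0, so it was highest in test replicate 2. *Scgb2b2* (0, 0 and 6.66 counts against 0, 0 and 0) and *Scgb3a1* (2, 1 and 0 against 0, 3 and 0) were barely detected. *Sval2*, a relative of *Pip* next to it on chromosome 6, was counted 12 times in test replicate 1 and 1 time in control replicate 2, and stood at 0 in the other tumors. *Dcpp3*, the remaining *Dcpp* gene, peaked with its relatives in control replicate 2 at 10.6 counts and had 8.48 in control replicate 3. The peroxidases *Mpo* and *Epx*, which lie near *Lpo* on chromosome 11 and belong to granulocytes, were not listed. *Pxdn*, a peroxidase of the extracellular matrix, was at 49.0, 11.8 and 59.4 FPKM in control tumors and at 12, 8.38 and 14.1 FPKM in test tumors (log2 fold change -1.81 ± 0.57, adjusted p = 0.462).

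Of 12 other BPI fold genes 6 were listed and 4 had at least 10 counts in a tumor. *Bpifb5* was at 4120, 1914 and 2361 counts in control and at 56, 1185 and 40 counts in test tumors. *Bpifb1*, which encodes a secreted protein of airway and salivary mucus, was at 2652, 243 and 1032 counts in control and at 11, 125 and 8 in test tumors. For both genes every control tumor was above every test tumor, as for 5.88% of all tested genes. Neither passed the edgeR test over all genes. The log2 fold change was -4.68 ± 1.32 for *Bpifb1* (adjusted p = 0.432) and -2.59 ± 1.24 for *Bpifb5* (adjusted p = 0.645). *Bpifb3* had 206 counts in test replicate 2 and at most 2 elsewhere, and *Bpifb4* had 11 in that tumor and at most 4 elsewhere. Test replicate 2 was thus the tumor in which *Bpifb3*, *Bpifb4* and *Scgb1c1* were highest, although no member was. It was the highest tumor of 25.7% of all tested genes.

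Salivary gland markers were found in part. Of 20 genes in the list, 12 were listed in the tumors, 8 had at least 10 counts in one and 3 could be tested, with none at an unadjusted p under 0.05. *Car6*, the carbonic anhydrase secreted into saliva and milk, was at 21.4, 116 and 42.6 FPKM in control and 914, 62.3 and 39.3 FPKM in test tumors, so it too was highest in test replicate 1 and next in control replicate 2. Its log2 fold change was 2.49 ± 1.20 (adjusted p = 0.646). *Mucl2*, a salivary mucin-like gene, had 0, 182 and 4 counts in control and 13.5, 5.54 and 0 in test tumors, and *Prol1*, an apomucin gene 208.3 kb from *Smr2*, had 4, 5 and 146 counts against 10, 3 and 1. *Mucl2* was highest in control replicate 2, as were the *Dcpp* genes, and *Prol1* in control replicate 3, as was *Smr3a*. These were the highest tumors of 12.7% and 10.8% of tested genes. The likeness ended there. In control replicate 3 *Mucl2* had 4 counts and *Dcpp2* 99.4, and in control replicate 1 *Prol1* had 4 counts and *Smr3a* 617. Both *Mucl2* and *Prol1* were next highest in test replicate 1. *Dnase1* was level, at 12 to 35 counts in all 6 tumors. *Amy1*, salivary amylase, and *Egf* are named after their values were seen, since both also peaked in test replicate 1, with 65.7 and 125 counts there. Defining genes of the submandibular and parotid glands were missing: *Klk1*, *Klk1b4*, *Prb1* and *Prh1* had at most 5 counts in a tumor, and *Smgc*, *Prpmp5* and *Cst10* were not listed.

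Of the lacrimal genes, *Mup5*, a major urinary protein also made in glands, was at 0.64, 38.7 and 2.28 FPKM in control and 528, 1.21 and 0.85 FPKM in test tumors, the first and second tumors being those of the secretoglobins. *Mup5* has close copies, so its level is uncertain, and its log2 fold change was 3.66 ± 2.30. *Mup4* had 10.4 counts in test replicate 1 and 4.37 in control replicate 2 and was at 0 elsewhere. *Obp1a*, *Obp1b* and *Lcn11* were not listed.

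**Figure D4:**
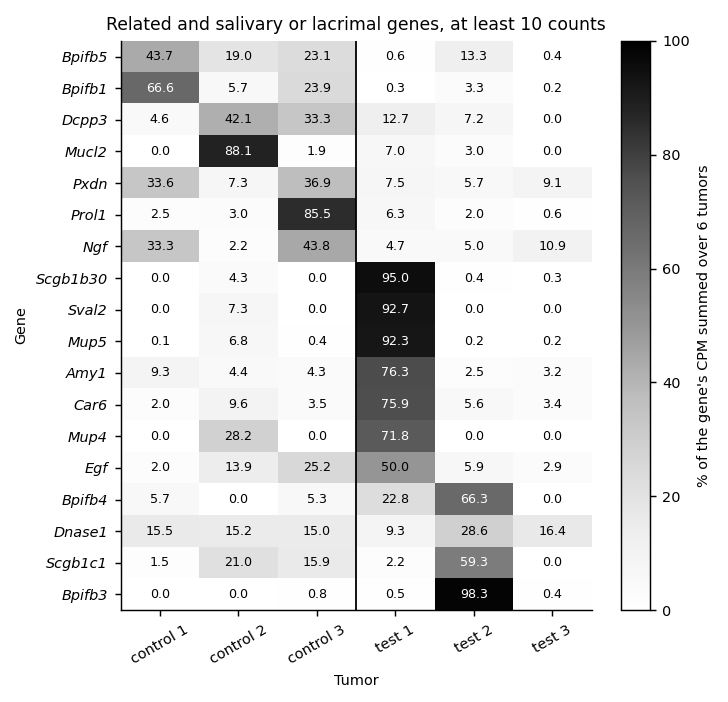
Percent of each gene's CPM summed over 6 tumors held by each tumor, for related, salivary and lacrimal genes with at least 10 counts in a tumor. *Scgb1b30*, *Sval2*, *Mup5*, *Amy1*, *Car6*, *Mup4* and *Egf* are darkest in test replicate 1, *Mucl2* in control replicate 2, *Prol1* in control replicate 3 and *Bpifb3* in test replicate 2.

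General genes of secretory acini were not confined to the tumors with gland products. Of 15 such genes 14 were tested, and 8 of the 15 were highest in test replicate 1, as were 18.5% of all tested genes. At an unadjusted p under 0.05, 4 were higher in test tumors and 1 was lower (3.15% and 5.26% of all tested genes), with a median log2 fold change of 0.52 against 0.02 over all tested genes, and none passed the adjusted threshold. By mean level the first were *Xbp1*, a factor of the secretory endoplasmic reticulum (log2 fold change 0.07 ± 0.39), *Aqp5*, the acinar water channel (0.12 ± 0.44), *Kcnn4*, a potassium channel (1.17 ± 0.34, adjusted p = 0.447), and *Elf5*, a factor of milk-secreting alveoli (0.73 ± 0.47). The others with an unadjusted p under 0.05, named for that reason, were the chloride channel gene *Ano1* (1.42 ± 0.37), the factors *Spdef* (2.26 ± 0.93) and *Creb3l1* (1.18 ± 0.40), and the muscarinic receptor gene *Chrm1* (-1.87 ± 0.60). Without test replicate 1 or without control replicate 3, 3 genes of the list were left at that p in place of 5.

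The sums of muscle and of adipocyte markers were highest in test replicate 1, too. The summed level of 10 skeletal muscle genes was 5.01, 119 and 3.94 FPKM in control and 621, 127 and 69.0 FPKM in test tumors, and 9 of the 10 were highest in test replicate 1. The sum of 10 adipocyte genes was 43.6, 34.4 and 40.3 FPKM in control and 535, 143 and 31.1 FPKM in test tumors. All 9 with at least 10 counts were highest in test replicate 1. That tumor was the highest of 18.5% of all tested genes. *Myh4*, a fast muscle myosin, had 3 counts in control replicate 1 and 3661 in test replicate 1, and *Adipoq*, the adipocyte hormone, had 1 and 403. Control replicate 2, second for the secretoglobins, *Pip* and *Lpo*, was the highest control tumor for the muscle sum and the lowest for the adipocyte sum. *Fabp4* alone gave 36.8, 15.7 and 29.6 FPKM of the adipocyte sums of control replicates 1 to 3. By CPM, *Adipoq*, *Plin1*, *Cfd*, *Retn*, *Cidec* and *Lipe* were highest among controls in control replicate 2, some at few counts. *Fabp4*, *Lep*, *Plin4* and *Pck1* were not. The part of these tissues in the levels of the gland genes was not tested. Between groups, 1 of 10 muscle genes and 3 of 6 tested adipocyte genes were higher in test tumors at an unadjusted p under 0.05, against 3.15% of all tested genes. Without control replicate 2 all 10 muscle genes passed that p, in a fit where 2020 of 14166 genes did in either direction.

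Milk protein genes had a pattern of their own. The sum of 12 was 5109, 3190 and 4494 FPKM in control and 12330, 13380 and 11970 FPKM in test tumors, and 7 of the 12 were highest in test replicate 2, as were 25.7% of all tested genes. Of the 9 tested milk genes 7 had log2 fold changes above 0 and 2 below, *Csn1s1* (-0.47 ± 0.76) and *Xdh* (-0.37 ± 0.47). *Csn3*, kappa casein, lies 59.0 kb from *Smr3a* and was at 4088, 1585 and 4134 FPKM in control and 10248, 6286 and 9826 FPKM in test tumors. In every tumor it was the largest part of the milk sum. Every test tumor was above every control tumor, as for 6.12% of tested genes, the reverse of the group order of *Smr3a*. Within the groups *Csn3* and *Smr3a* were alike in part: both were lowest in control replicate 2 among controls and highest in test replicate 1 among test tumors. *Ltf*, *Lalba* and *Wap*, which encode milk proteins, were each highest in test replicate 2. The sum of 5 myoepithelial genes was 223, 157 and 992 FPKM in control and 346, 245 and 211 FPKM in test tumors, so that it was highest in control replicate 3, where *Smr3a*, *Smr2* and *Bpifa2* were highest too. Of the 992 FPKM, 682 came from *Acta2* alone. By CPM, 3 of the 5 genes were highest in that tumor, as were 10.8% of all tested genes. *Trp63* was instead highest in control replicate 1 and *Krt14* in test replicate 2. Genes of this list differed in control replicate 1, the other tumor with high *Smr3a*: the basal keratin *Krt5* was at 3.66 FPKM there against 198 in control replicate 3, *Oxtr*, the oxytocin receptor, at 14.7 against 33.3 FPKM, and *Trp63*, a basal cell factor, at 99.3 against 15.8 FPKM. Leukocyte genes summed to 264, 281 and 524 FPKM in control and 171, 353 and 159 FPKM in test tumors. *Lyz2* gave 405 of the 524 FPKM in control replicate 3 and 286 of the 353 FPKM in test replicate 2. All 7 tested leukocyte genes had log2 fold changes below 0, with a median of -0.72 against 0.02 over all tested genes. None of the 7 passed the adjusted threshold. The part of these cell types in the result was likewise not tested. The sum of 10 luminal epithelial genes was 1276, 2884 and 1196 FPKM in control and 3563, 3448 and 3712 FPKM in test tumors, so this sum was lowest in control replicates 1 and 3, the tumors with high *Smr3a* and *Smr2*.

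**Figure D5:**
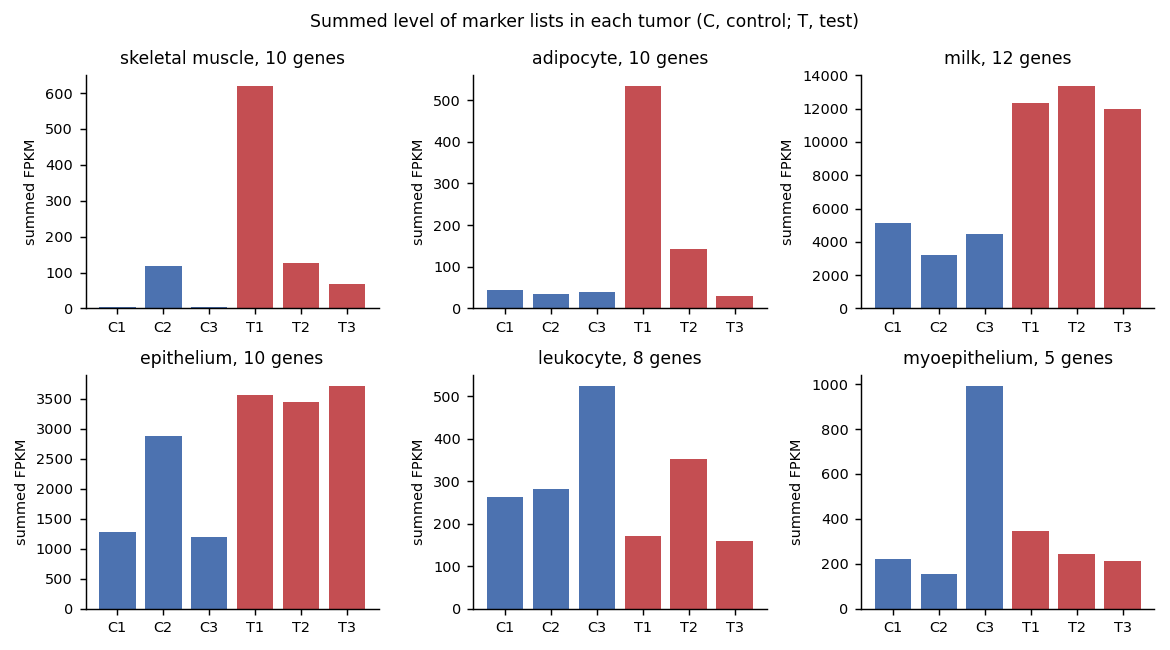
Summed FPKM of 6 marker lists in each tumor (C1 to C3, control, blue; T1 to T3, test, red; each panel has its own axis from 0). Muscle (621) and adipocyte (535) sums are highest in test replicate 1, the myoepithelial sum (992) in control replicate 3, and all 3 test tumors exceed all control tumors for milk and epithelium. *Csn3* is the largest part of the milk sum in every tumor, and *Acta2* of the myoepithelial sum in control replicate 3.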

How the data were processed

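RNA-seq was analyzed from 3 test and 3 control breast tumors, grouped by the group label and replicate number. Per the study's methods, reads were aligned to the mouse genome (mm10) with Bowtie, and the submitters' processing notes also name RSEM and BWA without a role. The strand setting and the annotation release are not given in the sources used here. The authors deposited, per tumor, an expected count, an estimate made from the alignments, a FPKM value and a transcript length per NCBI gene. FPKM is scaled by the authors to length and depth, and only genes with a value are listed, so an absent gene was taken as 0. In each tumor 79.0% to 80.1% of the listed counts were whole numbers.

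Of 18460 gene identifiers, 18400 matched the RefSeq annotation by identifier and 13 through a transcript, and 47 had no match. Expected counts were rounded to whole numbers, filtered with filterByExpr (13706 genes), scaled by TMM and fitted with the quasi-likelihood test of edgeR 4.0.16 (R 4.3.3) on all 6 tumors with no covariate, with Benjamini-Hochberg adjustment over all tested genes and a call at an adjusted p of 0.05 or less. The biological coefficient of variation was 0.434. This code was tested on simulated data. Alternatives were DESeq2 1.42.0, RLE scaling, 2 other filters on low counts, limma-trend (limma 3.58.1) on log2(FPKM + 1) and log2(FPKM + 0.1), a replicate block and leaving out each tumor in turn. Shares and correlations used CPM with a pseudocount of 0.5 on the log2 scale. Sequence identity came from pairwise alignment with free end gaps in Biopython 1.88, on RefSeq promoters and GENCODE transcripts of GRCm38, and intervals from SciPy 1.17.1.

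The 10 genes and all marker lists were chosen with earlier results of these data known. Named besides them are, from each list, up to 4 measured genes with the highest mean FPKM, for each of the 10 genes the 3 others with the highest correlation, the nearest annotated genes, and *Tslp* and *Rag1*. Other names were chosen after their values were seen. Intervals and floors cover counting error only, since no molecular identifiers are stated.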

Additional observations from a re-analysis of the deposited data

How the results depend on the processing

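The count of genes called between groups, 0 in the edgeR fit, was 344 with DESeq2 and 1 with limma on log2(FPKM + 1), and it ranged from 0 to 182 when 1 tumor was left out, the highest without control replicate 2. The cause was not tested. Among the 22 tested genes of the salivary, lacrimal, acinar and family lists, 7 had an unadjusted p under 0.05, against 11 with no filter on low counts, where 45 genes were tested, and 5 to 9 when 1 tumor was left out. The tumor in which each gene was highest did not depend on the scale, whether FPKM, raw counts or RLE-scaled CPM. Leaving out 1 tumor moved the number highest in control replicate 1 between 0 and 2, in control replicate 2 between 2 and 7 (7 without test replicate 1), in control replicate 3 between 3 and 5, and in test replicate 2 between 0 and 1. Of 98 alternative fold changes of these genes, 86 moved by less than the spread between tumors. Of the 3 closest genes named for each, 1 or 2 were again among the first 3 on log2(FPKM + 0.1). By Spearman's rank correlation 6 to 54 genes tied for the first place, so that measure gives no order.

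Both groups carry replicate numbers 1 to 3, but same-numbered tumors did not deviate together across genes (r = -0.025, 0.121 and -0.137), and not every tumor correlated best with its own number. With the number as a replicate block 0 genes were called, 6 of the 22 list genes had an unadjusted p under 0.05, and the log2 fold change of *Pip* was -1.16 in place of 3.60, that of *Scgb1b27* 0.88 in place of 4.09, that of *Scgb2b27* 1.13 in place of 3.22 and that of *Bpifa2* 1.24 in place of 0.39, whereas *Smr3a*, *Smr2*, *Dcpp2* and *Lpo* had -6.03, -6.83, -3.13 and 3.10. The SEs of the fold changes were 1.18 to 2.47 on the log2 scale with 3 tumors a group, and levels under about 3 counts, as in *Scgb2b26*, *Smr2* and *Bpifa2*, cannot be ordered.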

Other observations

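Of the annotated genes nearest to the *Smr* pair, *Cabs1*, beside *Smr3a*, had 1 count in control replicates 1 and 3 and 0 in the others. *Prss32*, on the lower side of *Dcpp1*, had 2 counts in control replicate 2 and 0 in the others, too few to order the tumors. *Bpifa6*, beside *Bpifa2*, had 1 count in test replicate 1 alone. *Mks1*, a gene of the ciliary transition zone beyond *Lpo*, was counted in every tumor, from 9.02 counts in control replicate 3 to 55 in control replicate 1. *Sval3*, a further relative of *Pip*, had 5 counts in test replicate 1 and 0 elsewhere.

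Epidermal genes summed to 1.17 to 5.99 FPKM over the tumors and were lowest in test replicate 1, and endothelial genes summed to 21.9 to 30.7 FPKM with no tumor apart.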
